A study of Rattus norvegicus with 6 samples.

Results

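The pancreas of rats given a crush injury and exosomes was compared with the pancreas of sham-operated rats. The comparison took 4 of the 6 libraries of the series, the 2 TP+hucMSC-Exs libraries and the 2 control libraries, which were chosen by their group labels and not by any measured value. All animals were Sprague-Dawley rats, an outbred laboratory strain, and the series describes a separate rat for each library. Control rats had a laparotomy in which the gland was turned with cotton swabs, and received about 1 ml of saline through the tail vein. TP+hucMSC-Exs rats had traumatic pancreatitis (TP), made by pressing the exposed gland in an impactor set to 3 cm2 and 10 kg, and received exosomes from human umbilical cord mesenchymal stem cells (hucMSC-Exs) at 10 μg per 100 g of body weight through the tail vein. Tissue was taken 24 h after the operation; the labels used here state neither age nor sex. The groups differ in both the injury and the exosomes, so the parts that each plays in a difference cannot be told apart here. The injured rats that received saline, the TP group, did not enter the fit, and their 2 libraries are quoted only as values set beside those of the other 4.

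The exocrine pancreas is built from acinar cells, which make and store digestive enzymes as inactive precursors, and from ducts that carry them to the gut. In pancreatitis, acinar cells are known to lower enzyme synthesis, to secrete lectins of the Reg family and to take on keratins and surface proteins of duct cells, a change called acinar-to-ductal metaplasia, while monocytes and neutrophils enter the gland. Exosomes are small membrane vesicles released by cells, and those of mesenchymal stem cells are studied as carriers of anti-inflammatory signals.

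Expression was measured as TPM, transcript abundance per length scaled to the same total in each library. TPM keep no sequencing depth, so the depth was unknown and no counting error can be given. A gene listed at 0 was not necessarily unexpressed: Rpl8, a ribosomal protein that every cell needs, was itself listed at 0 in TP+hucMSC-Exs replicate 1. Of 34001 genes, 9220 had a mean of at least 1 TPM over the 4 libraries and were tested with limma on log2(TPM + 0.5). Because a fall of a few very abundant transcripts lifts the TPM of all others, each gene was tested on TPM as deposited and again after median-of-ratios scaling, which sets the median gene of all libraries level. The words rose and fell are used only for genes with an adjusted p below 0.05 in the same direction under both scalings, called here. Fold changes are scaled log2 differences with their standard error (SE, n = 2 libraries per group) unless named as deposited, and they understate the change of genes of low TPM.

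Under both scalings 547 genes rose and 47 fell, or 5.93% and 0.51% of the genes tested. As deposited, 6467 genes (70.1%) were called higher and 83 (0.9%) lower, and the median gene was 1.21 log2 units higher in the TP+hucMSC-Exs group. After scaling, 547 (5.93%) were called higher and 273 (2.96%) lower. Of the 83 genes called lower as deposited, 36 were not called after scaling, and of the 273 called lower after scaling, 226 were not called as deposited. Higher genes were 98.7% of the calls as deposited and 66.7% after scaling. All 547 genes called higher after scaling were also called higher as deposited. The rule of both scalings is thus stricter for falls than for rises. The smallest called rise was 0.70 log2 units and the smallest called fall -2.00. Counts of genes that fell, and statements that none fell, carry this limit. Of the 547 genes that rose, 26 did so by over 4 log2 units, 149 by 2 to 4 and 372 by less. The libraries of the 2 groups did not overlap for any of the 594 called genes, but 32.2% of all tested genes were higher without overlap under both scalings and 1.64% lower, and the called genes were a part of those. Of the called genes, 33 were listed at 0 in both controls and 7 at 0 in both treated libraries. A fit without 1 treated library takes its spread from the 2 controls alone. A fit without 1 control takes it from the 2 treated libraries alone. The number of calls changed widely between these fits, which cannot show whether the calls rest on single libraries. Over the 157 genes named by the rule, the scaled change turned sign in 3 without TP+hucMSC-Exs replicate 1 and in 4 without replicate 2. It turned sign in 7 without control replicate 1 and in 8 without control replicate 2. When the TP libraries entered the fit and shared its estimate of the spread, 1 gene rose and none fell under both scalings, with 378 genes as deposited and 988 scaled at an unadjusted p below 0.05. List counts below that leave out a control carry the same limit. List counts without a treated library are not given. Of the fits without 1 library, those without a treated library had the fewest calls after scaling. The counts given thus do not show that a list holds without each library. The plot of fold change against level shows the shift of the whole distribution between the scalings.

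**Figure D1:**
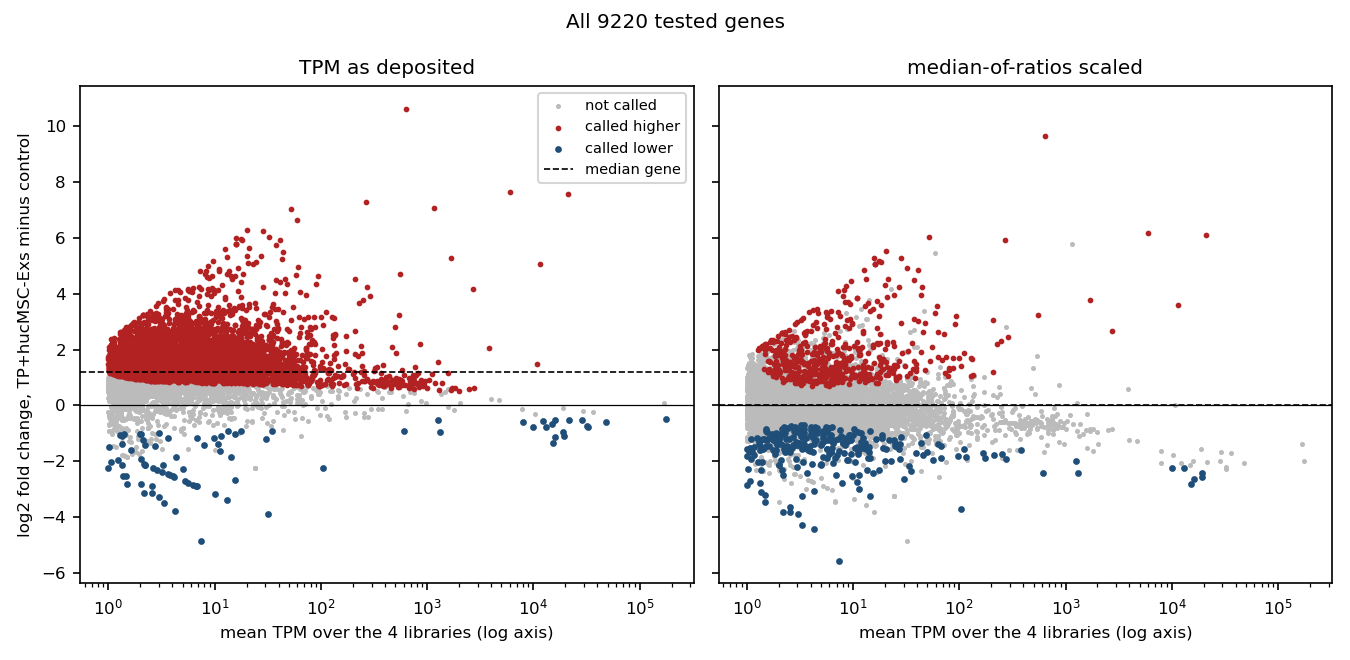
Log2 fold change (TP+hucMSC-Exs minus control) against mean TPM on a log axis for the 9220 tested genes, as deposited (left) and after median-of-ratios scaling (right). Each point is a gene, red where called higher, blue where called lower and grey otherwise; the dashed line is the median gene, at 1.21 as deposited and 0.00 after scaling.

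The size factors behind the scaling were 0.465 and 0.778 in the controls and 1.51 and 1.86 in the treated libraries. The controls thus differed from each other by 0.74 log2 units and the treated libraries by 0.30. The controls held 5533 and 7863 genes with at least 1 TPM and the treated libraries 9924 and 10537. Control replicate 2 held more lymphoid and blood transcripts than control replicate 1, which nearly lacked several lymphoid ones. Hba-a1, an alpha-globin, was at 236 and 1247 TPM in the controls. Cd3e, a T cell receptor chain, was at 0 and 6.47 TPM in the controls, Ighm, an immunoglobulin chain, at 1.67 and 42.7, and Cd74, an MHC class II chaperone, at 6.46 and 132. Control replicate 1 held more islet RNA, with Ins1, an insulin gene, at 925 TPM against 141. TP replicate 2 stood apart from the other 5 libraries, with 17.4% of its TPM in its 10 most abundant genes against 54.3% to 68.1%, so values of the 2 TP libraries are quoted singly. The part of these differences in the results below was not tested, beyond the counts without a control that are given beside some lists. List counts cover the members that passed the filter. A member near 0 in the controls could pass only through the treated libraries, so the counts and medians of lists describe the members that passed. The counts are to be read beside the shares of all tested genes, 5.93% that rose and 0.51% that fell. These shares do not apply to list counts without a control. Those fits called other numbers of genes over all genes tested, so a larger count there is not a result about the list.

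The acute stress proteins of the pancreas rose most. Of 14 tested members of this list 11 rose and 1 fell, against 5.93% and 0.51% of all genes, with a median of 3.57 against 0.00 over all genes; 16 members were in the table. The summed list went from 0.81% and 0.88% of all TPM in the controls to 8.96% and 11.2% in the treated libraries. Without control replicate 1 the number that rose was 12, and without control replicate 2 it was 11. The list was known from earlier results of these data to change, so its direction is a description.

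The Reg3 proteins are secreted C-type lectins, known as pancreatitis-associated proteins, that bind bacteria and act on the stressed epithelium. Reg3b (ENSRNOG00000006151) was at 200.4 and 247 TPM in the controls and at 38509 and 45798 TPM in the treated libraries, and rose by 6.08 ± 0.28 (adjusted p = 0.0103). At that level it stood among the 10 most abundant transcripts of both treated libraries. Reg3a was at 631 and 684 TPM in the controls and at 19342 and 25204 TPM in the treated libraries, a rise of 3.59 ± 0.32 (adjusted p = 0.0211). Reg3g was nearly absent from the controls, at 0.130 and 0.370 TPM, and reached 756 and 1781 TPM, the largest rise of all called genes with 9.64 ± 0.37 (adjusted p = 0.00961). The treated libraries were close to each other for Reg3b and Reg3a and farther apart for Reg3g. In the TP libraries Reg3b was at 15906 and 1902 TPM and Reg3g at 75.3 and 1.40 TPM. Reg1a, the related regenerating protein already abundant in the normal gland, was at 5427 and 6028 TPM in the controls and at 15062 and 16809 TPM in the treated libraries. That difference was called as deposited (1.48 ± 0.16, adjusted p = 1.18e-06) and was 0.00 ± 0.33 after scaling. These genes are close paralogs, and how the authors' counting split their reads is not given.

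The promoters of the 3 Reg3 genes are shown because their transcripts rose together by different amounts, and that of Hamp because it holds a motif of Reg3b. Each is the 250 bases before the RefSeq start on GRCr8, from 5′ to 3′ on the gene's strand. Capitals mark the STAT-type motif TTCNNNGAA and the AP-1-type motif TGANTCA, searched on both strands. Reg3b lies on the plus strand at chr4:112419526-112419775, Reg3a on the plus strand at chr4:112430147-112430396 (the first of its listed starts), Reg3g on the minus strand at chr4:112484739-112484988 and Hamp on the minus strand at chr1:95300272-95300521.
Reg3b: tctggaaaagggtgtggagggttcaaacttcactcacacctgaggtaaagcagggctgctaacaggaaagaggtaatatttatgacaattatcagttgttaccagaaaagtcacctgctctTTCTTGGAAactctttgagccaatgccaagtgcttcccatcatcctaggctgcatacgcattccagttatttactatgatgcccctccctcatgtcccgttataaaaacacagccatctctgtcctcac
Reg3a: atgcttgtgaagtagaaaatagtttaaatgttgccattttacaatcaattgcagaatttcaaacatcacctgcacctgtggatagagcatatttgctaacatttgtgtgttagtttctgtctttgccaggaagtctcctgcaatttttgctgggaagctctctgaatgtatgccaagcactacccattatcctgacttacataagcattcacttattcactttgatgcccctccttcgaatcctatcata
Reg3g: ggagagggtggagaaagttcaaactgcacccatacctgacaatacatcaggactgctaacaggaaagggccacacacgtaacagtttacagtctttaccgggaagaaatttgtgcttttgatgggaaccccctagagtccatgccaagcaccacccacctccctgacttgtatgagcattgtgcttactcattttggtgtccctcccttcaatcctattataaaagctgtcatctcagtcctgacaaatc
Hamp: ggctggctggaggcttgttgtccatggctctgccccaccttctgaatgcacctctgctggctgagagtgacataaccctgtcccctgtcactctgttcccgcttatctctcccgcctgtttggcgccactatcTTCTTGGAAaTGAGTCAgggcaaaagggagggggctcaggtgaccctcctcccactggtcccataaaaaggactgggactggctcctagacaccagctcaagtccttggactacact
Reg3b and Hamp hold the same 9 letters, TTCTTGGAA, starting 129 bases before the start in Reg3b and 117 before it in Hamp, where an AP-1-type match follows at 107. The windows of Reg3a and Reg3g hold neither motif, which says only that these letters are not in them. Over the 367 promoters matched among 546 symbols that rose, 19 held the STAT-type motif, 5.18% against 5.82% of the 6632 matched promoters of tested genes and 7.52% of all 27457 in the table. The AP-1-type motif was in 33 of the 367, or 8.99%, against 4.28% of the tested and 6.36% of all. A kappaB-type motif was in 2.45%, 1.19% and 0.994% in the same order, and an RBPJ-type motif, TGGGAA, in 22.3%, 20.2% and 21.6%. Among the 20 matched promoters of 47 genes that fell, 4 held the STAT-type and 2 the AP-1-type motif. These shares are descriptions, and no motif is taken as a binding site.

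Other stress genes had the same pattern. Clu, clusterin, a secreted chaperone of damaged epithelium, was at 41.7 and 82.7 TPM in the controls and at 9861 and 14148 TPM in the treated libraries, a rise of 6.17 ± 0.25 (adjusted p = 0.00961). In the TP libraries Clu was at 289.9 and 509 TPM. Nupr1, a small nuclear stress protein, was at 298 and 273 TPM in the controls and at 4405 and 5874 TPM in the treated libraries, a rise of 2.68 ± 0.37 (adjusted p = 0.0343), while the TP libraries held 114 and 122 TPM. All treated values of these genes lay above all control values. Lcn2, lipocalin 2, which withholds iron from bacteria, was at 2.88 and 2.78 TPM in the controls and at 431 and 632 TPM in the treated libraries, a rise of 5.90 ± 0.30 (adjusted p = 0.0108). In the TP libraries Lcn2 was at 216 and 560.0 TPM, so the second of them lay within the range of the treated libraries. Hspa1b and Hspb1, stress-induced chaperones, rose by 3.84 ± 0.24 and 3.11 ± 0.20. Tnfrsf12a, the receptor of the cytokine TWEAK, was at 0 and 0.160 TPM in the controls and at 31.8 and 38.7 TPM in the treated libraries, a rise of 5.18 ± 0.21 (adjusted p = 0.00961), and at 1.13 and 39.2 TPM in the TP libraries. Tff2, a trefoil peptide, was the member that fell, from 1492 and 1473 TPM to 1062 and 997 TPM, by 2.00 on the log2 scale (adjusted p = 0.0487). Without control replicate 1, or without control replicate 2, Tff2 was no longer called.

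**Figure D2:**
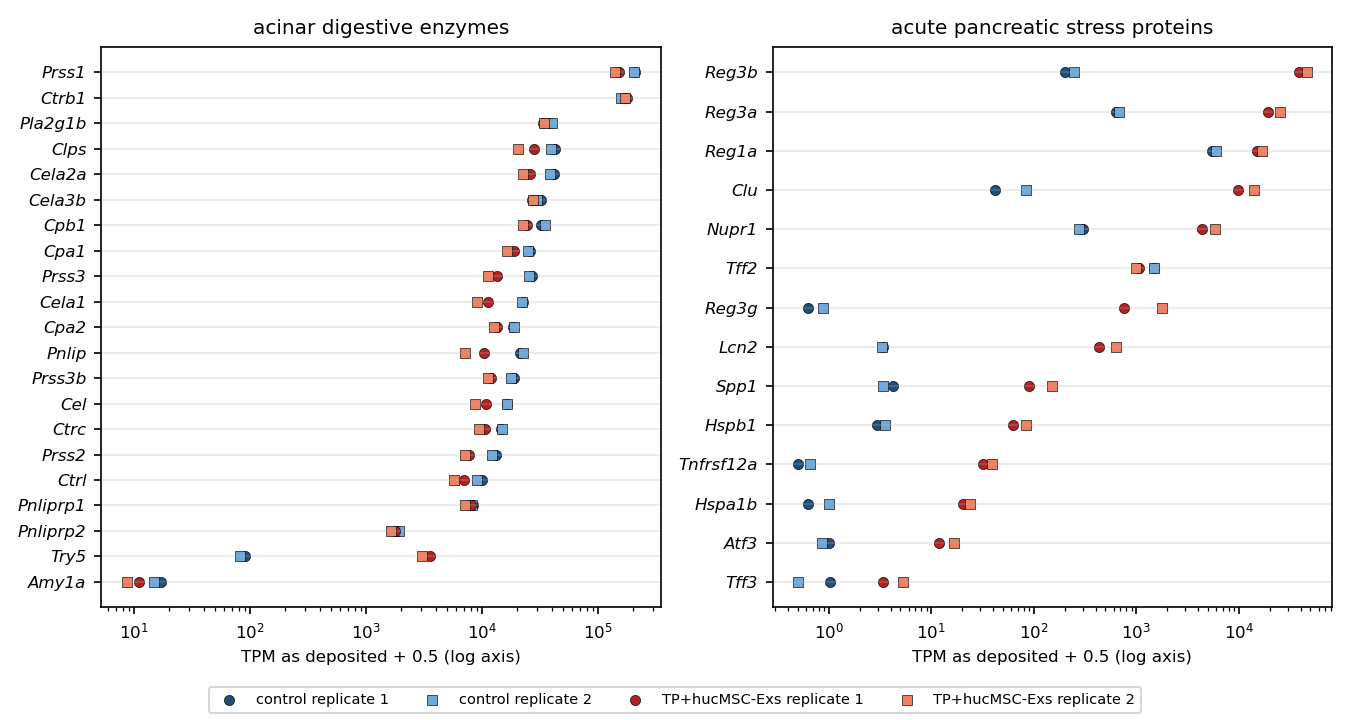
TPM as deposited plus 0.5 on a log axis for the 21 tested acinar digestive enzymes (left) and the 14 tested stress proteins (right), with 1 point per library. The treated points of most enzymes lie a little to the left of the control points, except those of Try5, which goes from 90.1 and 80.7 TPM to 3547 and 3040.1 TPM; most stress proteins lie far to the right in both treated libraries.

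Digestive enzymes, the main product of acinar cells, took 76.7% and 73.5% of the controls' TPM and 59.8% and 54.8% of the treated libraries' TPM. The difference of the means, -17.8 percentage points, had a two-sided exact permutation p of 0.333, the smallest that 2 against 2 libraries can give. In bulk tissue, fewer cells of a type and less RNA per cell cannot be told apart. Of 21 tested enzymes 5 fell and 1 rose, and the list median was -2.04. As deposited 14 were called lower, against 0.9% of all genes tested. Of these, 9 were not called after scaling, where the adjusted p of Prss1, for example, was 0.065. The number of enzymes that fell changed when either control was left out. Those fits take their spread from the treated libraries alone, so they cannot show whether the lower calls rest on single controls.

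Pnlip, pancreatic lipase, which digests fat, was at 21254 and 22320.1 TPM in the controls and at 10359 and 7186 TPM in the treated libraries, and fell by 2.81 on the log2 scale (SE 0.45, adjusted p = 0.04). Cela1, an elastase, was at 22315 and 21967 TPM in the controls and at 11235 and 9017 TPM in the treated libraries, and fell by 2.61 (SE 0.43, adjusted p = 0.0411). Prss3, a trypsinogen, went from 27099 and 25354 TPM to 13544 and 11259.9 TPM and fell by 2.56 (SE 0.44, adjusted p = 0.0438). As deposited, these falls were 1.34, 1.14 and 1.09 log2 units, so part of each fall stood before any scaling. Prss2, a trypsinogen, and Cel, the bile salt-dependent lipase, were the other members that fell, with scaled adjusted p-values of 0.0491 and 0.0497. The most abundant enzymes moved less. Prss1, the main trypsinogen, was at 209093 and 203002 TPM in the controls and at 152806 and 139717 TPM in the treated libraries, called lower as deposited (-0.50 ± 0.11, adjusted p = 0.000928) and not after scaling (-1.97 ± 0.43, adjusted p = 0.065). Ctrb1, chymotrypsinogen B, was at 172127 and 156284 TPM in the controls and at 178569 and 170734 TPM in the treated libraries, and was called under neither. The enzymes were thus unequal among themselves: the deposited change was 0.09 ± 0.11 for Ctrb1 and -1.34 ± 0.17 for Pnlip, and scaling moves both alike.

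Try5, a trypsinogen of low level in the control gland, went the other way. It was at 90.1 and 80.7 TPM in the controls and at 3547 and 3040.1 TPM in the treated libraries, and rose by 3.79 ± 0.41 (adjusted p = 0.0247; 5.26 ± 0.24 as deposited). The TP libraries held 31.5 and 8.92 TPM, below both controls. Reads of the trypsinogen genes may be shared between near-identical copies, so its level is uncertain. Other products of the acinar cell showed no call under both scalings. None of 15 tested genes of zymogen granules and trypsin inhibitors, of 11 acinar transcription factors and of 11 secretagogue receptors and calcium signalling genes was called under both. Ptf1a, the transcription factor that maintains acinar identity, was at 13.4 and 16.2 TPM in the controls and at 32.5 and 34.5 TPM in the treated libraries, called higher as deposited (1.15 ± 0.33, adjusted p = 0.00614) and at -0.29 ± 0.23 after scaling, so its direction depends on the scaling. Spink1, the trypsin inhibitor of acinar cells, was at 643 and 725 TPM in the controls and at 1184 and 1861 TPM in the treated libraries, with the same dependence (1.12 ± 0.24 as deposited, -0.35 ± 0.32 scaled).

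Keratins and surface proteins of duct epithelium rose. Of 14 tested genes of ducts and acinar-to-ductal metaplasia, of 24 in the table, 8 rose and none fell, with a median of 1.82. Krt19, the classical duct keratin, was at 1.46 and 2.23 TPM in the controls and at 32.4 and 35.3 TPM in the treated libraries, a rise of 2.56 ± 0.15 (adjusted p = 0.0137). Krt7, another duct keratin, was at 0.510 and 0.710 TPM in the controls and at 14.8 and 23.4 TPM in the treated libraries, a rise of 2.95 ± 0.18 (adjusted p = 0.0141). Krt8 and Krt18, keratins of simple epithelia that acinar cells also make, rose by 2.30 ± 0.28 and 1.71 ± 0.29. In the TP libraries Krt19 was at 1.06 and 4.68 TPM and Krt8 at 49.0 and 35.6 TPM. The summed list took 0.0100% and 0.0115% of TPM in the controls and 0.108% and 0.144% in the treated libraries. In the TP libraries it took 0.0174% and 0.197%, so TP replicate 2 lay above both treated libraries in this sum. The largest rise of the list was that of Tspan1, a tetraspanin, from 0.390 and 0.530 TPM to 49.6 and 78.5 TPM (4.91 ± 0.19, adjusted p = 0.00961), with 2.21 and 0.140 TPM in the TP libraries. Sox9 and Cftr, a transcription factor and a chloride channel that mark ducts, were below the filter in all 4 libraries, at no more than 0.620 and 0.820 TPM. The count was 8 without control replicate 1 and 9 without control replicate 2.

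Junction genes followed the keratins in part. Of 20 tested claudins and junction genes 7 rose and none fell (median 0.66). Cldn4, a claudin of tight junctions, was at 0.360 and 0.350 TPM in the controls and at 35.0 and 49.5 TPM in the treated libraries, a rise of 4.53 ± 0.20 (adjusted p = 0.0103). Cldn7 and Cldn18, also claudins, rose by 2.27 ± 0.28 and 2.72 ± 0.24. Cdh1, E-cadherin, which holds epithelial cells together, was at 4.22 and 5.78 TPM in the controls and at 48.3 and 57.2 TPM in the treated libraries, a rise of 1.87 ± 0.18 (adjusted p = 0.0217). Slc26a9, an epithelial chloride transporter, was at 0.01 and 0.05 TPM in the controls and at 24.4 and 25.9 TPM in the treated libraries, a rise of 4.84 ± 0.15 (adjusted p = 0.00961). Of these genes, Cldn4 and Slc26a9 were low in both TP libraries, at 0.370 and 0.820 TPM and at 0.0400 and 0.300 TPM. The summed junction list took 0.00674% and 0.00861% of TPM in the controls and 0.0355% and 0.0416% in the treated libraries. In the TP libraries it took 0.00882% and 0.0204%, so TP replicate 2 lay between the controls and the treated libraries. Whether the TP and TP+hucMSC-Exs groups differ in these genes was not tested here.

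Annexins and S100 proteins, calcium-binding proteins of membranes and of the inflamed cell, rose with them: 11 of 18 tested members rose and none fell, with a median of 1.85. S100a11 was at 5.67 and 7.98 TPM in the controls and at 170.0 and 190.1 TPM in the treated libraries, a rise of 3.21 ± 0.19 (adjusted p = 0.013), with 10.3 and 420.3 TPM in the TP libraries. S100a6 rose by 3.06 ± 0.20 and Anxa2, which binds membranes and plasminogen activators, by 2.90 ± 0.29. Anxa10, an annexin known from gastric epithelium, was at 0.590 and 0.410 TPM in the controls and at 25.8 and 25.2 TPM in the treated libraries, a rise of 3.55 ± 0.31 (adjusted p = 0.0208). Its promoter is shown because it held 2 matches to the AP-1-type motif, in capitals, which start 172 and 13 bases before the start. It lies on the plus strand at chr16:32504775-32505024 of GRCr8.
Anxa10: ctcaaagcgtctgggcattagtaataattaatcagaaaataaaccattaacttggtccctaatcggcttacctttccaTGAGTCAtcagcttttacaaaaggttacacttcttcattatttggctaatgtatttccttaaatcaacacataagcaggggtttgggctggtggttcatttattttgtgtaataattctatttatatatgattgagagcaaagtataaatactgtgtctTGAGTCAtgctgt
Of 23 tested genes of the actin cytoskeleton and its remodelling 8 rose and none fell (median 1.14). Tubb6, a tubulin, was at 0.370 and 1.26 TPM in the controls and at 23.1 and 33.1 TPM in the treated libraries, a rise of 3.36 ± 0.28 (adjusted p = 0.0183). Actb, beta-actin, stood at 59.7 and 239 TPM in the controls and at 747 and 933 TPM in the treated libraries, and was not called after scaling (1.33 ± 0.47, adjusted p = 0.148). The spread between the controls was wide for Actb, and without control replicate 2 the number of list members that rose was 17.

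**Figure D3:**
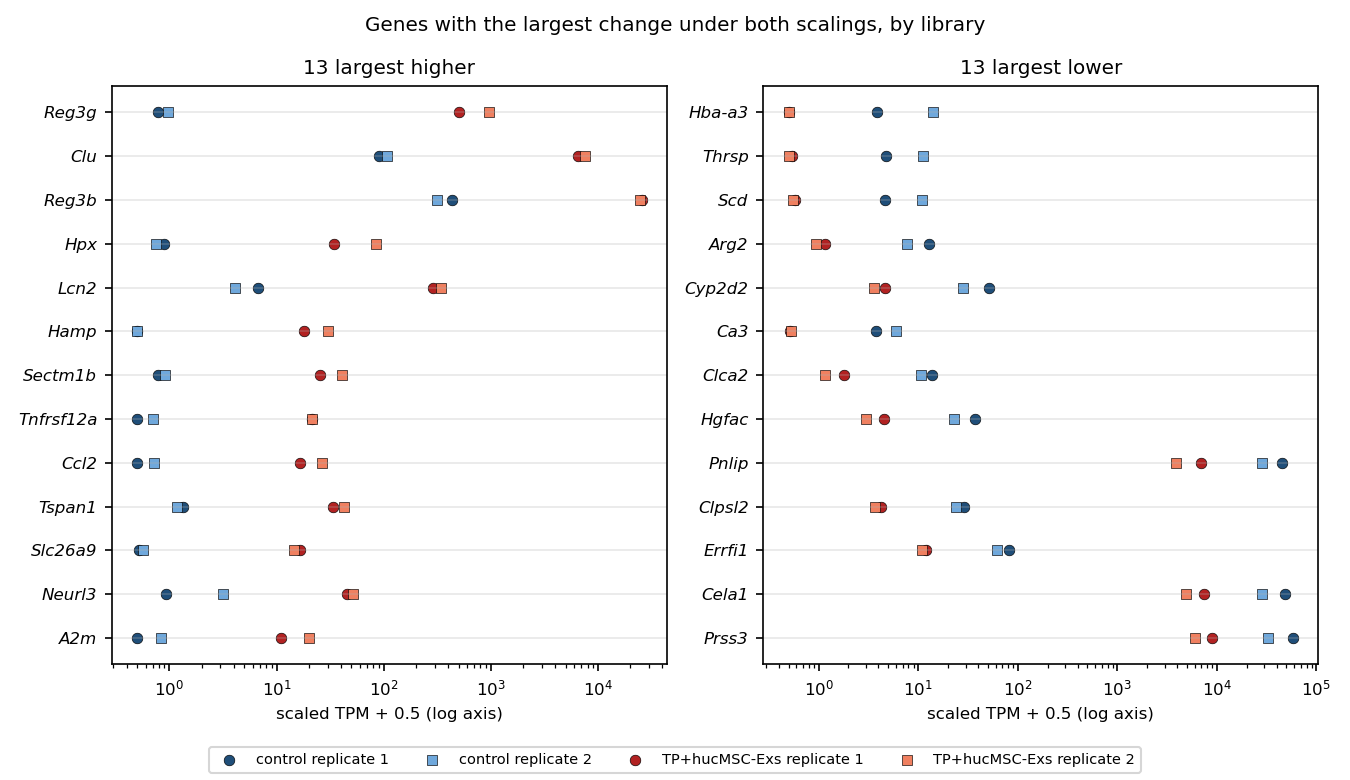
Scaled TPM plus 0.5 on a log axis for the 13 named genes with the largest rise (left) and the 13 with the largest fall (right), with 1 point per library. In every gene shown both treated libraries lie on one side of both controls; Hamp is listed at 0 in both controls and Hba-a3 at 0 in both treated libraries.

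Genes that handle iron and haem and genes of the acute phase were among the largest rises. Hamp, hepcidin, the hormone that limits iron release, was listed at 0 in both controls and at 26.3 and 55.0 TPM in the treated libraries (adjusted p = 0.0108); no fold is given against a group at 0. Hpx, hemopexin, which binds free haem, was at 0.180 and 0.200 TPM in the controls and at 50.9 and 157 TPM in the treated libraries, a rise of 6.04 ± 0.47 (adjusted p = 0.0174). The TP libraries held no more than 0.400 TPM of Hamp and 0.770 TPM of Hpx. With Lcn2 and Hp, haptoglobin, these made 4 of 12 tested iron and haem genes (17 in the table) that rose, while the ferritin chains Fth1 and Ftl1 were at -0.15 and -0.02 after scaling. Of 15 listed acute-phase genes, 7 passed the filter, most of them through the treated libraries alone, and of these A2m, Lbp, Cd14, Il1rn and Fga rose. Because the filter favours such genes, their number is no support for a change of the list. A2m, alpha-2-macroglobulin, a protease inhibitor, was at 0 and 0.260 TPM in the controls and at 15.8 and 36.8 TPM in the treated libraries, a rise of 4.53 ± 0.41 (adjusted p = 0.0211). The second treated library was the higher one for Hamp, Hpx and A2m.

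The transcription factor lists moved less than the stress proteins. STAT3 mediates the signal of interleukin 6 family cytokines, and of 16 tested genes of this axis 4 rose and none fell (median 0.60). Osmr, the oncostatin M receptor, was at 0.0900 and 0.260 TPM in the controls and at 3.72 and 5.15 TPM in the treated libraries, a rise of 2.04 ± 0.22 (adjusted p = 0.0247). Bcl3 and Cebpd, nuclear regulators that cytokines induce, rose by 1.92 ± 0.30 and 1.24 ± 0.18. Stat3 itself was called as deposited only (1.66 ± 0.37) and was at 0.26 ± 0.15 after scaling. Of 17 tested AP-1 and immediate early genes 6 rose and none fell under both scalings (median 1.04), among them Atf3 by 2.81 ± 0.29, Klf6 by 1.95 ± 0.34 and Jun by 1.38 ± 0.17. Junb was at 2.66 and 5.75 TPM in the controls and at 24.8 and 39.0 TPM in the treated libraries, a rise of 1.45 ± 0.22 (adjusted p = 0.0375). Of 16 tested NF-kappaB subunits and targets 2 rose, Bcl3 and Sod2. The counts of this list and of the STAT3 and AP-1 lists changed when control replicate 2 was left out. That fit takes its spread from the treated libraries alone, so it cannot show whether a list depends on that control.

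**Figure D4:**
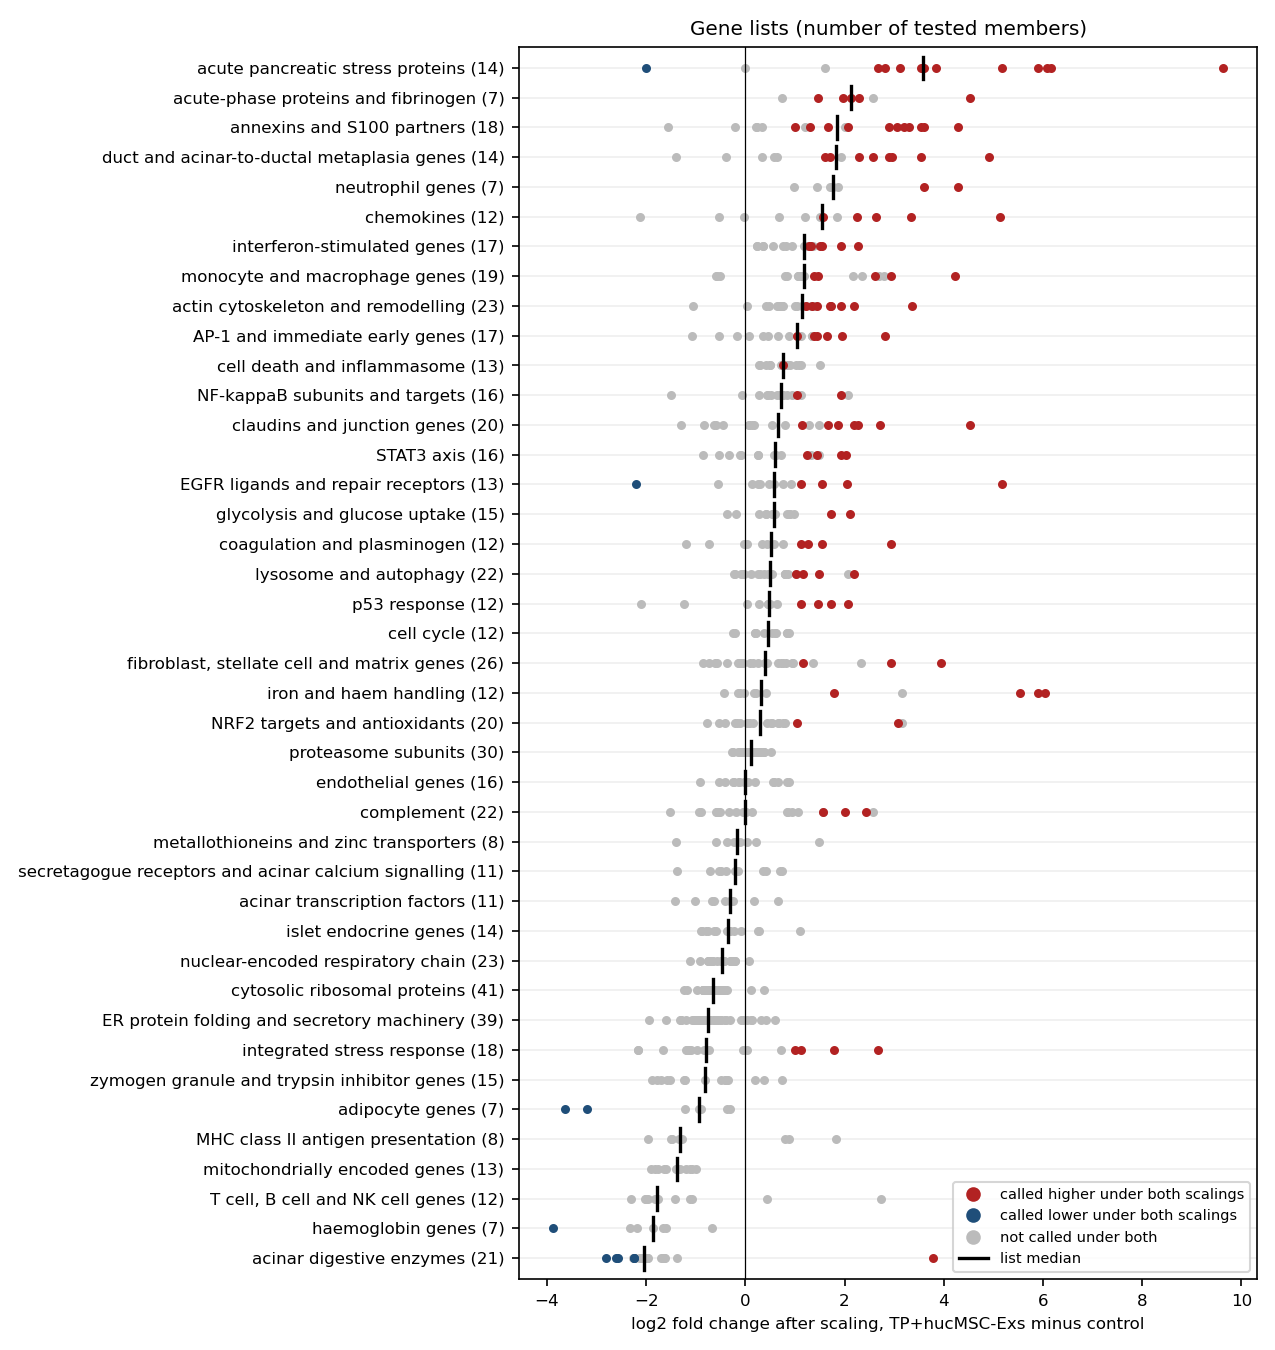
Scaled log2 fold change (TP+hucMSC-Exs minus control) of each tested member of the lists with at least 5 tested members, ordered by their median (black bar). Red points rose and blue points fell under both scalings; stress proteins are highest with a median of 3.57 and digestive enzymes lowest with -2.04.

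Chemokines and myeloid genes rose in part. Of 19 listed chemokines, 12 were tested, of which 5 rose and none fell (median 1.54). Ccl2, which draws monocytes, was at 0 and 0.170 TPM in the controls and at 24.1 and 48.9 TPM in the treated libraries, a rise of 5.13 ± 0.32 (adjusted p = 0.0141). Ccl7, Cxcl10 and Cxcl16 rose by 3.35 ± 0.37, 2.64 ± 0.21 and 2.25 ± 0.15. The TP libraries held 2.89 and 248 TPM of Ccl2, below and above the treated libraries. Without control replicate 2, 9 chemokines rose. Of 19 tested monocyte and macrophage genes 5 rose and none fell (median 1.18), with 3 without control replicate 1 and 14 without control replicate 2. Gpnmb, a glycoprotein of activated macrophages, was at 0.290 and 1.61 TPM in the controls and at 44.3 and 62.4 TPM in the treated libraries, a rise of 4.23 ± 0.43 (adjusted p = 0.0235), with 2.91 and 533 TPM in the TP libraries. Lgals3, galectin 3, rose by 2.95 ± 0.17, Fcer1g, an Fc receptor chain, by 2.62 ± 0.46, and Cd163, a haemoglobin scavenger receptor, by 1.39 ± 0.16. Lyz2, lysozyme, stood at 5.41 and 103 TPM in the controls and at 335 and 649 TPM in the treated libraries, and was not called after scaling (2.79 ± 1.20, adjusted p = 0.2). The controls were far apart for such genes. The summed macrophage list was higher in each treated library than in each control, as the plot of summed shares shows.

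**Figure D5:**
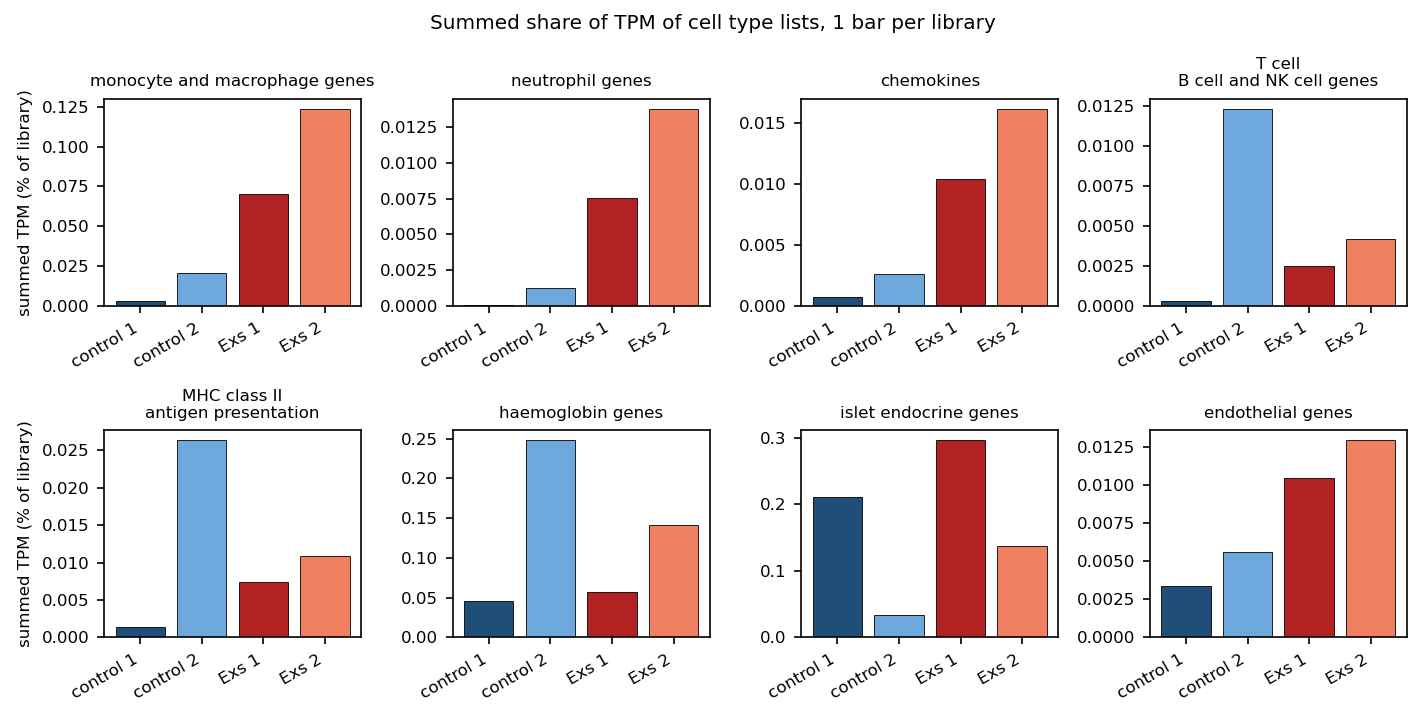
Summed TPM of 8 cell type lists as a percentage of each library, with 1 bar per library and axes that start at 0; Exs 1 and Exs 2 are the TP+hucMSC-Exs replicates. Macrophage, neutrophil, chemokine and endothelial lists are higher in both treated libraries. The shares are of TPM as deposited, where the median gene was 1.21 log2 units higher in the treated group. The endothelial list had a member median of 1.16 as deposited and -0.003 after scaling. The lymphocyte, MHC class II and haemoglobin lists are highest in control replicate 2, among the 4 libraries shown, and the islet list is lowest in it.

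Of 17 listed neutrophil genes, 7 passed the filter (scaled median 1.76). All 7 were called higher as deposited, as were 70.1% of all genes tested. Under both scalings S100a8 and S100a9, the calprotectin chains, rose by 4.29 ± 0.32 and 3.61 ± 0.54. S100a8 was at 0.210 and 0.750 TPM in the controls and at 27.6 and 51.8 TPM in the treated libraries. The granule genes Mpo, Elane and Camp, made mainly by neutrophil precursors, stayed below the filter, at no more than 0.170 TPM in these 4 libraries. The number of neutrophil list members that rose was 6 without control replicate 2. None of 12 tested lymphocyte genes and 8 MHC class II genes was called under both scalings, with medians of -1.77 and -1.31. Without control replicate 1, 10 of the lymphocyte genes and 5 of the MHC class II genes fell, and without control replicate 2, 2 and 3 of them rose. For Cd3e, Ighm and Cd74 the control libraries lay on both sides of the treated ones, which were at 0.490 and 0.470, 5.43 and 7.70, and 29.3 and 37.9 TPM. Cd8a, a T cell co-receptor, went the other way, from 0 and 2.92 TPM to 11.5 and 20.5 TPM, called higher as deposited (3.60 ± 0.58) and not after scaling (2.74 ± 1.06, adjusted p = 0.17). Of 17 tested interferon-stimulated genes 6 rose and none fell (median 1.19). Tap1, a peptide transporter for MHC class I, was at 0.710 and 2.16 TPM in the controls and at 17.2 and 23.3 TPM in the treated libraries, a rise of 2.27 ± 0.27 (adjusted p = 0.0285). Isg15 and Mx2, classical interferon targets, rose by 1.92 ± 0.29 and 1.55 ± 0.17. Of 22 tested complement genes 3 rose: the anaphylatoxin receptors C5ar1 and C3ar1, by 2.44 ± 0.27 and 2.01 ± 0.27, and the inhibitor Serping1, by 1.57 ± 0.28. Without control replicate 2 the counts were 11 interferon-stimulated and 8 complement genes, and without control replicate 1 they were 4 and 3.

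Matrix genes rose in part. Of 26 tested fibroblast, stellate cell and matrix genes 3 rose and none fell (median 0.40), against 5.93% and 0.51% of all genes tested. Timp1, an inhibitor of matrix metalloproteinases, was at 0.920 and 2.98 TPM in the controls and at 69.6 and 100.2 TPM in the treated libraries, a rise of 3.94 ± 0.32 (adjusted p = 0.0179), with 13.3 and 1089 TPM in the TP libraries. Fn1, fibronectin, and Postn, periostin, rose by 2.94 ± 0.55 and 1.17 ± 0.19. The fibrillar collagen genes Col1a1 and Col3a1 were not called after scaling, at 0.94 ± 0.22 and 0.09 ± 0.29. The number of list members that rose was 5 without control replicate 1 and 12 without control replicate 2. Col1a1 was at 6.61 and 15.2 TPM in the controls, at 51.9 and 56.5 TPM in the treated libraries and at 20.4 and 1593 TPM in the TP libraries. Of 12 tested genes of coagulation and plasminogen, of 20 in the table, 4 rose, among them the urokinase receptor Plaur by 1.54 ± 0.26, prothrombin F2 by 1.27 ± 0.18 and tissue plasminogen activator Plat by 1.13 ± 0.13. None of 16 tested endothelial genes was called under both (median 0.00).

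Of 18 tested genes of the integrated stress response 4 rose (Nupr1, Gdf15, Ddit3 and Ppp1r15a) while the list median was -0.80. After scaling, 4 other members were called lower, against 2.96% of all genes tested, but no member was called lower as deposited. Gdf15, a stress hormone, was at 0.840 and 1.41 TPM in the controls and at 10.3 and 15.2 TPM in the treated libraries, a rise of 1.79 ± 0.15 (adjusted p = 0.0183). Of 12 tested p53 response genes 4 rose: Phlda3 by 2.08 ± 0.14, Cdkn1a, the cell cycle inhibitor p21, by 1.74 ± 0.16, Bax, which promotes cell death, by 1.46 ± 0.17, and Mdm2, which degrades p53, by 1.13 ± 0.17. Cdkn1a was at 2.64 and 3.90 TPM in the controls and at 26.7 and 37.5 TPM in the treated libraries. No cell cycle gene of 12 tested was called under both scalings, but 7 rose without control replicate 2. Of 22 tested lysosome and autophagy genes 4 rose: Ctsb, cathepsin B, which can activate trypsinogen, by 2.20 ± 0.21, Grn, progranulin, by 1.49 ± 0.17, Sqstm1, the autophagy receptor p62, by 1.16 ± 0.21, and Npc2 by 1.01 ± 0.18. Ctsb was at 27.5 and 38.2 TPM in the controls and at 353 and 488 TPM in the treated libraries. Of 20 tested NRF2 targets and antioxidants Gpx2, a glutathione peroxidase of epithelia, and Sod2, the mitochondrial superoxide dismutase, rose, by 3.09 ± 0.25 and 1.04 ± 0.19, which is 2 members against 5.93% of all genes tested. Without control replicate 2, 11 lysosome and 5 NRF2 list members rose, and without control replicate 1 they were 5 and 3. None of 39 tested genes of protein folding and secretion, 41 ribosomal proteins and 30 proteasome subunits was called under both. Of the ribosomal proteins 37 and of the proteasome subunits 30 were called higher as deposited, as were 70.1% of all genes tested. Their deposited medians were 0.82 and 1.55 beside 1.21 for all genes.

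Fewer genes fell under the rule of both scalings, which asks more of a fall than of a rise, and they were of several kinds. Errfi1, an inhibitor of the EGF receptor, was at 37.5 and 47.9 TPM in the controls and at 17.3 and 19.2 TPM in the treated libraries, and fell by 2.64 on the log2 scale (SE 0.21, adjusted p = 0.0179). Egf, the receptor's ligand, fell by 2.21 (SE 0.30, adjusted p = 0.0342), from 4.0 and 4.25 TPM to 2.14 and 1.53 TPM. The related receptor Erbb3 rose by 2.06 ± 0.14. Of 13 tested EGF receptor ligands and repair receptors 4 rose and 1 fell (median 0.58), against 5.93% and 0.51% of all genes tested. The call for Egf was lost without control replicate 1. Arg2, the mitochondrial arginase, was at 5.71 and 5.59 TPM in the controls and at 1.01 and 0.840 TPM in the treated libraries, and fell by 3.23 (SE 0.29, adjusted p = 0.0211). Cyp2d2, a cytochrome P450, fell by 3.23 on the log2 scale (SE 0.35). Hgfac, the protease that activates hepatocyte growth factor, and Clpsl2, a colipase-like protein, fell by 3.00 (SE 0.34) and 2.75 (SE 0.18). The Arg2 and Cyp2d2 values of the TP libraries, 1.14 and 1.10 TPM and 6.72 and 1.78 TPM, were also below both controls. Scd, Thrsp and Ca3, genes that fat cells use, were near 0 in both treated libraries. The 7 tested genes of the adipocyte list, of 16 in the table, differed in direction as deposited: Scd and Ca3 fell, the deposited median was 0.41 and the scaled one -0.93, and the list took 0.0033% and 0.0071% of TPM in the controls against 0.0050% and 0.0065% in the treated libraries. Scd was at 1.92 and 8.05 TPM in the controls and at 0.13 and 0.1 TPM in the treated libraries, a fall of 3.64 (SE 0.44, adjusted p = 0.0289). Adipoq, a defining fat cell hormone, was at no more than 1.42 TPM in all 4 libraries, and in TP replicate 2, where Adipoq was at 741 TPM, Scd stood at 375 TPM. The part of fat tissue in these falls was not tested. Hba-a3, an alpha-globin copy, was at 1.57 and 10.5 TPM in the controls and listed at 0 in both treated libraries, while the other 6 globin and erythroid genes were not called, although 3 genes of this list fell without control replicate 1.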

How the data were processed

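Pancreas RNA of 6 rats in 3 groups of 2 was sequenced from SMARTer mRNA-Seq libraries, per the labels' protocols. The deposited values are gene-level TPM that the authors computed, scaled to the same total in each library. The aligner, the TPM program and the use of strand were not given in the sources used here. Per the submitters' processing notes the builds were GRCm38 and mm10, which are of mouse, but the deposited gene IDs are rat IDs and IDs of assembled transcripts (401 of the latter were tested). Genes with a mean of at least 1 TPM over the 4 libraries were tested on log2(TPM + 0.5) with limma 3.58.1 in R 4.3.3 (empirical Bayes with a variance trend, 2 residual degrees of freedom), with Benjamini-Hochberg adjustment over all genes tested and a threshold of 0.05. The same fit was run after division by median-of-ratios size factors. The code was tested on simulated data. P-values and SEs rest on the spread between these libraries, moderated over all genes tested. The prior degrees of freedom were 18.7 as deposited and 2.40 after scaling, beside the 2 residual ones. The alternatives tried are other pseudocounts, filters and scalings, no trend, all 6 libraries, a replicate block, a fold minimum and each library left out.

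The members and the 43 gene lists were chosen with earlier results of these data known. Named genes are the 15 with the largest rise and the 15 with the largest fall under both scalings with proper symbols, and from each list the called members of largest change and those of highest level. Other genes were named after their values were seen, and a few genes are not reported here. Promoters are the 250 bases before the first listed RefSeq start on GRCr8, and 109 of 157 genes named by the rule had one.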

Additional observations from a re-analysis of the deposited data

How the results depend on the processing

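Each count is given as higher and lower genes, for TPM as deposited, scaled and under both. Without a filter on low values, 3997 genes were higher as deposited, 57 lower, and none was called after scaling or under both in limma's test, with 3647 at an unadjusted p below 0.05. A filter of at least 5 TPM left 2902 higher and 38 lower as deposited and 465 lower after scaling, with fewer genes tested, and 321 of the genes that rose and 23 of those that fell were shared with those reported. In the fit on all 6 libraries 14 were higher and 0 lower as deposited, and 1 and 0 after scaling and under both; 378 and 988 genes had an unadjusted p below 0.05 as deposited and scaled. An additional absolute log2 change of at least 1 left 795 and 10, 39 and 5, and 39 and 4. Quantile normalization gave 685 and 521, and TPM rescaled without digestive enzymes 1374 and 125. With a replicate block, 597 were lower after scaling and 88 under both, 778 higher under both, and the deviations of same-numbered libraries correlated at 0.0737 as deposited and 0.109 scaled, so with 2 pairs the numbers are not shown to pair the libraries. Leaving out each library in turn, counts ranged from 1077 to 8104 and from 70 to 204 as deposited, from 0 to 1535 and from 0 to 1421 after scaling, and from 0 to 1535 and from 0 to 124 under both. The cause of these changes was not tested.

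Pseudocounts of 0.1 and 1 and the fit without a trend kept the counts within 1.5 times. Deposited log2 changes turned sign in 20 values of named genes that were called before or after; other values, called on neither side, also changed sign. Under quantile normalization these were Sycn at 0.32, Cckar at -1.27, Sctr at -0.48, Nfkbia at -0.027, Sparc at -0.10, Plvap at -0.066, Lpl at -1.20, Cox4i1 at -0.31, Cox5b at -0.043, Rplp1 at -0.028, Rpl37 at -0.055, Ccnd2 at -0.31 and Mt1 at -0.27. With TPM rescaled without digestive enzymes, Rplp1 was at -0.16, and Cckar, Lpl and Cd74, called on neither side, at -0.72, -0.57 and -0.59. Leaving out each library in turn, the change ranged from -2.63 to 1.68 for Ighm, from -1.97 to 2.28 for Cd74, from -2.09 to 2.03 for RT1-Db1, from -0.17 to 2.51 for Ins2, from -1.39 to 1.00 for Hba-a1 and from -1.43 to 1.16 for Hbb, with both ends set by leaving out 1 control or the other. Depth is unknown in TPM, so the counting error of low genes could not be given.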

Other observations

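Several of the largest changes belonged to no list. Sectm1b, a secreted and transmembrane protein, was at 0.130 and 0.320 TPM in the controls and at 37.6 and 75.5 TPM in the treated libraries, a rise of 5.26 ± 0.28 (SE, n = 2 per group; limma adjusted p = 0.0108). Wfdc2, a secreted epithelial protein with whey acidic protein domains, was at 0.710 and 1.05 TPM in the controls and at 54.9 and 94.0 TPM in the treated libraries, a rise of 4.49 ± 0.22. Neurl3, a ubiquitin ligase, went from 0.200 and 2.05 TPM to 67.6 and 95.2 TPM and rose by 4.83 ± 0.61. The treated values of all 3 lay above both TP libraries, whose highest values were 9.74 TPM for Sectm1b, 5.39 for Wfdc2 and 15.3 for Neurl3. Clca2, a regulator of chloride conductance, and Ak5, an adenylate kinase, fell by 3.05 and 2.50 on the log2 scale.

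Energy metabolism lists differed in their calls. Of 15 tested genes of glycolysis and glucose uptake 2 rose, against 5.93% of all genes tested. These were Pkm, pyruvate kinase, by 1.72 ± 0.22 and Slc16a3, a lactate exporter, by 2.10 ± 0.30. None of 23 tested nuclear-encoded respiratory chain genes and 13 mitochondrially encoded genes was called under both scalings, with scaled medians of -0.47 and -1.38. Among 13 tested cell death genes Bcl2l1, which inhibits apoptosis, rose by 0.76 ± 0.14, which is 1 member against 5.93% of all genes tested. Without control replicate 2, 7 glycolysis and 10 cell death genes rose, and without control replicate 1 the counts were 2 and 0. None of 8 metallothionein and zinc transporter genes or 14 islet genes was called under both. Hmox1, the haem-degrading enzyme, was at 0.0800 and 1.59 TPM in the controls and at 11.7 and 29.2 TPM in the treated libraries, and was not called after scaling (3.15 ± 0.74, adjusted p = 0.0728).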
